A study of Mus musculus with 12 samples.

Results

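The Hox genes encode homeodomain transcription factors. The set described here was chosen by name: every array probe whose annotated symbol is Hoxa, Hoxb, Hoxc or Hoxd followed by a number. It holds 42 probes of 37 genes, out of 19896 genes named on the array. No measured value entered that rule, but the family was picked for description with earlier results of these data known, so the counts below describe these arrays and are no independent evidence. Hoxd11 is covered under an older name, and its probe is described apart. All 37 genes had a value on every array and entered the test with 19705 genes in all, so no member was lost to a filter. They fall into 4 clusters, with 10 genes of cluster a on chromosome 6, 10 of cluster b on chromosome 11, 9 of cluster c on chromosome 15 and 8 of cluster d on chromosome 2. By paralogue group they comprise 7 anterior genes (groups 1 to 3), 15 central genes (groups 4 to 8) and 15 posterior genes (groups 9 to 13). The same paralogue number in different clusters marks genes descended from a common ancestor.

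In vertebrate embryos Hox genes are switched on along the body axis in the order in which they lie in their clusters, and their combination sets the identity of each level of the trunk. Mesoderm, neural crest and the vessel wall built from them keep parts of that code into adult life, and in adult mice Hox expression differs between the aortic arch and the descending thoracic aorta. Hox proteins bind DNA together with the TALE homeodomain partners PBX, MEIS and PKNOX. Polycomb and trithorax group proteins keep the clusters silent or active, and retinoic acid is a classical inducer of their anterior genes.

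The arrays compared aortic arch RNA of C57BL/6 mice in 4 groups of 3 pools: wild type (wt) mice fed a high fat diet for 16 weeks, and Apoe-/- mice fed it for 8, 16 or 24 weeks. The Apoe-/- mouse lacks apolipoprotein E in all its cells and develops atherosclerosis. Every group began the diet at 8 weeks of age and no group ate chow, so age and length of diet cannot be told apart. The wild type was studied after 16 weeks only, so the comparisons at 8 and 24 weeks differ from it in age, diet length and genotype together. Whole aortas from the root to the renal bifurcation were collected, and the arches of 3 mice of a group were pooled for each array, except pool 2 of the 8-week group with 2 mice. The length of aorta that entered each pool is not stated in the labels. Each pool carried the Cy5 dye, and a common reference in Cy3 combined arch RNA of Apoe-/- mice from all 3 diet times in equal parts. Its label reads vehicle and 21 mice, where those of the Apoe-/- pools read no drug, and what the vehicle was is not stated. Pools 3 and 6 bear an asterisk in their titles whose meaning is not given.

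Values are log2 ratios of a pool to that reference, so 0 means the level of the reference, and ratios of different genes do not rank their expression. No spot intensity was used here, so how far each Hox probe lay above background is unknown. Differences are given on the log2 scale with the standard error of the fit, and a gene is called changed where limma's moderated test gives a Benjamini-Hochberg adjusted p under 0.05 over all 19705 genes. These p-values measure the spread between pools. In bulk tissue, fewer cells of a type and less RNA per cell cannot be told apart. Apoe itself stood at log2 ratios of 2.62, 2.01 and 2.85 in the wild type pools and between -0.20 and 0.23 in the Apoe-/- pools, as their labels say. Pools 2, 3, 18 and 6 had the widest spread of log2 ratios over all probes, with interquartile ranges of 0.466, 0.323, 0.297 and 0.228, against at most 0.211 in the other arrays. Over all probes, the wild type arrays correlated with the 24-week arrays at a median r of -0.431, and the 8-week with the 24-week arrays at -0.538. The labels state the dyes and the reference is a mixture of the 3 diet times, so the direction of the ratios was kept.

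Promoters are shown for 3 genes on which the results turn. Hoxa7 and Hoxb8, central genes of different clusters, were lower at both later diet times, and Hoxa10, a posterior gene, followed another course. Sequences are the 250 bases before the annotated start in RefSeq on GRCm38.p6, and 21 of the 37 genes had 22 such sequences. Capitals mark matches, on either strand, to TGATNNAT (a core of PBX-HOX sites), TGACAG (a core of MEIS sites) or TATAAA (the TATA box), none of which overlap there. The Hoxa7 window lies at chr6:52218574-52218823 on the minus strand. The Hoxb8 window lies at chr11:96281655-96281904 on the plus strand. Hoxa10 has 2 annotated starts, with windows at chr6:52240855-52241104 and chr6:52234940-52235189 on the minus strand.
Hoxa7: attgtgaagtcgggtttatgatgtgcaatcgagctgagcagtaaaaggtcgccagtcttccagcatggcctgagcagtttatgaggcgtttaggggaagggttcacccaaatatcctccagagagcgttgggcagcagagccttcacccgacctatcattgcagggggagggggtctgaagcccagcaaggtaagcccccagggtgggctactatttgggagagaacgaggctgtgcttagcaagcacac
Hoxb8: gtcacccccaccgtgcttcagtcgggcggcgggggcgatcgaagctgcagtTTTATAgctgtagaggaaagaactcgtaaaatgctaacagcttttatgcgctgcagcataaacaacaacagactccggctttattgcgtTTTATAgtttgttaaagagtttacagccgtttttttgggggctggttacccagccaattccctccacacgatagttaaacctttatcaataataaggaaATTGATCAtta
Hoxa10 upstream start: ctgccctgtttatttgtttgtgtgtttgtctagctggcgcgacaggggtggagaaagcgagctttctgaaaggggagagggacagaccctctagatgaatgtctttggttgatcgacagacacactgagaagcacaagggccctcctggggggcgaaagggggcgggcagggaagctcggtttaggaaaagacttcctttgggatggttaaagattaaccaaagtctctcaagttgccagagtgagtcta
Hoxa10 downstream start: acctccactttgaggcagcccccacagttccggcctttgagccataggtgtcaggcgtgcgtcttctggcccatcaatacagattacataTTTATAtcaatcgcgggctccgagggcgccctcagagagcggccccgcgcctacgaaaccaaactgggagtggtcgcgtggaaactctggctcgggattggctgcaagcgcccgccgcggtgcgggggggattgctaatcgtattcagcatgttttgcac

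The Hoxb8 window held 1 PBX-HOX and 2 TATA matches, the downstream Hoxa10 window 1 TATA match, and the Hoxa7 and upstream Hoxa10 windows none. Among the 22 Hox windows, 3 held a PBX-HOX match (Hoxa2, Hoxb1 and Hoxb8), 2 a MEIS match (Hoxa2 and Hoxa3) and 4 a TATA match (Hoxa10, Hoxb8, Hoxd13 and Hoxd4). Of all 32851 promoters of the same length, 7.7% held a PBX-HOX match, 15.9% a MEIS match and 12.4% a TATA match. A match describes letters only. The Hox windows had a median GC content of 58.6%, ranging from 40.4% in Hoxd4 to 80.0% in Hoxa13, against 52.4% over all promoters.

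**Figure D1:**
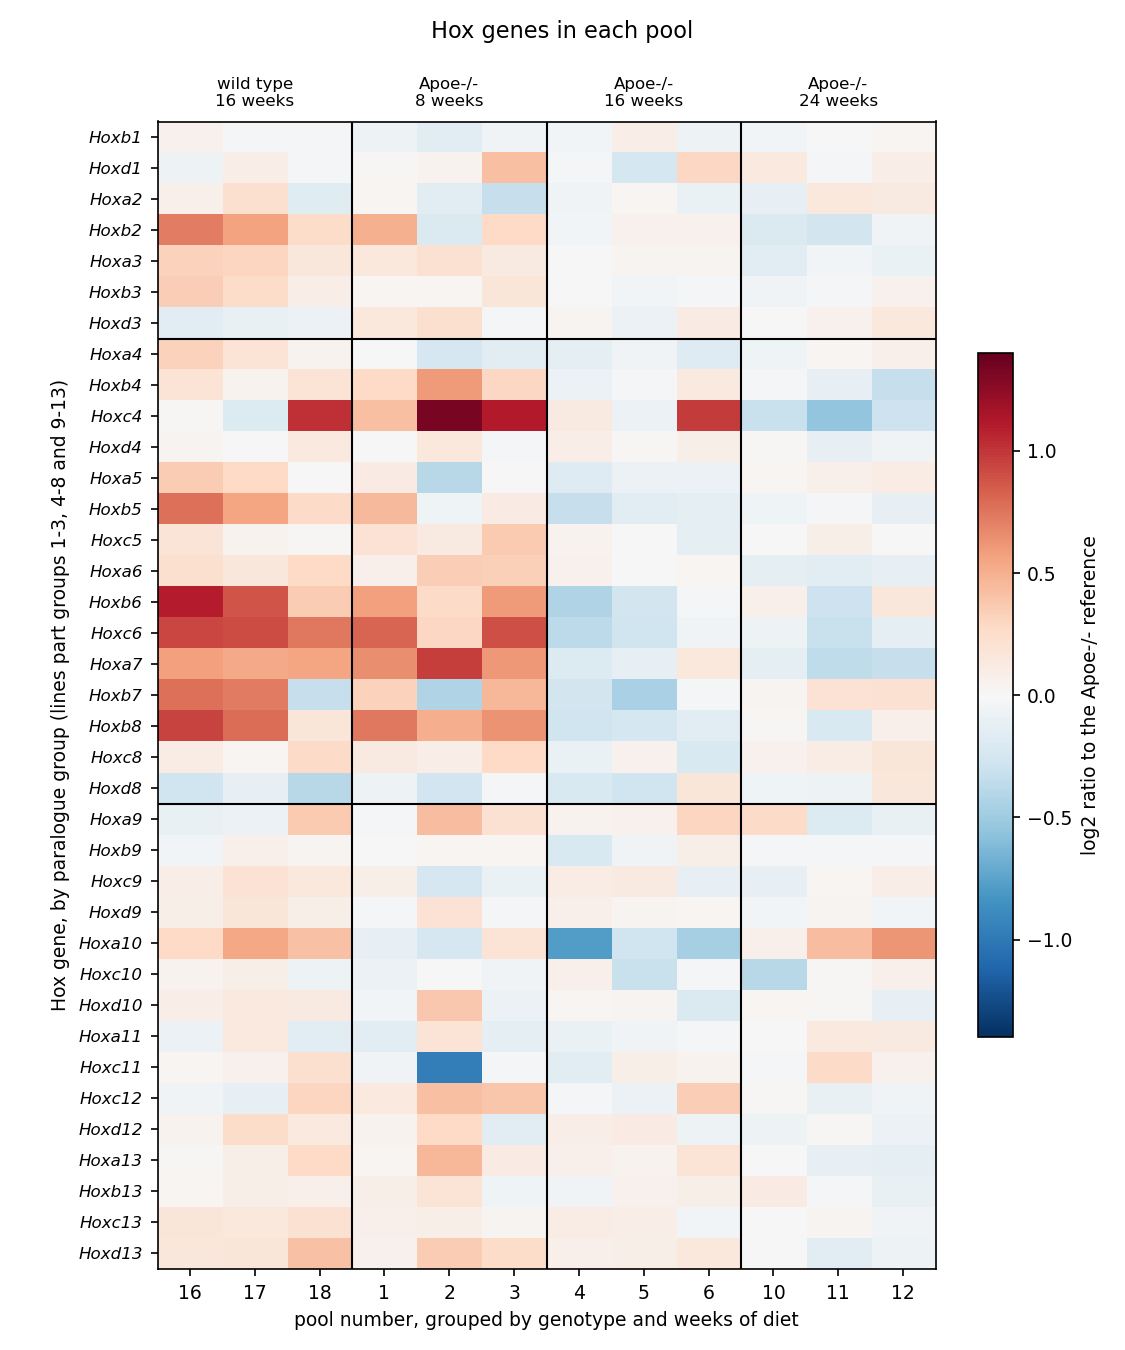
Log2 ratio of each of the 37 Hox genes (rows, by paralogue group, with lines between groups 1 to 3, 4 to 8 and 9 to 13) to the Apoe-/- reference in each of the 12 pools (columns, by group). Central genes such as Hoxb6, Hoxc6, Hoxa7 and Hoxb8 lie above 0 in wild type and 8-week pools and near or below 0 in most 16-week and 24-week pools, while Hoxc4 is high in pools 18, 2, 3 and 6.

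The first question was whether Hox expression differed between Apoe-/- and wild type arches after the same 16 weeks of diet. In this comparison, matched for diet and its length, 7 of the 37 Hox genes were lower in Apoe-/- arches and 0 were higher, which is 18.9% of the set. Over all genes tested, 4.07% were lower and 6.03% higher. The genes called were Hoxa3 (anterior), Hoxb5, Hoxb6, Hoxc6, Hoxa7 and Hoxb8 (central), and Hoxa10 (posterior). The median difference of all 37 Hox genes was -0.11, against -0.03 over all genes. Below 0 lay 30 of the 37 Hox genes and 11364 of 19705 genes.

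Hoxc6, which helps to pattern the thoracic level of the trunk, had the largest difference. Its log2 ratios were 0.94, 0.92 and 0.74 in wild type pools 16, 17 and 18, 0.81, 0.29 and 0.90 in 8-week pools 1, 2 and 3, -0.37, -0.28 and -0.05 in 16-week pools 4, 5 and 6, and -0.07, -0.31 and -0.12 in 24-week pools 10, 11 and 12. All wild type and 8-week pools lay above all 16-week and 24-week pools. At 16 weeks Hoxc6 was 2.14-fold lower than in wild type, a log2 difference of -1.10 ± 0.15 (adjusted p = 0.000753). The pools are given in this order for every gene below.

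Hoxb6, expressed in lateral plate mesoderm of the embryo, had log2 ratios of 1.10, 0.88 and 0.36 in wild type, 0.58, 0.27 and 0.60 at 8 weeks, -0.42, -0.26 and -0.03 at 16 weeks, and 0.07, -0.29 and 0.15 at 24 weeks. Wild type spread widely, with pool 18 lowest, yet no wild type pool overlapped the 16-week or 24-week pools. The difference at 16 weeks was -1.01 ± 0.19, or 2.02-fold lower (adjusted p = 0.00553). Hoxb8, a thoracic gene also known for holding blood progenitors undifferentiated when forced on in mouse cells, had 0.95, 0.78 and 0.17 in wild type, 0.74, 0.51 and 0.63 at 8 weeks, -0.28, -0.25 and -0.14 at 16 weeks, and 0.02, -0.21 and 0.07 at 24 weeks. Pool 18 was again the lowest wild type pool, and it stayed above every later Apoe-/- pool. Hoxb8 was 1.81-fold lower at 16 weeks, at -0.86 ± 0.17 (adjusted p = 0.00698).

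Hoxb5, whose product marks long-lived blood stem cells in mouse marrow, had log2 ratios of 0.78, 0.55 and 0.27 in wild type, 0.45, -0.06 and 0.12 at 8 weeks, -0.32, -0.15 and -0.12 at 16 weeks, and -0.06, -0.03 and -0.11 at 24 weeks. The 8-week pools overlapped wild type and the 24-week pools and lay above every 16-week pool. Its difference at 16 weeks was -0.73 ± 0.14, or 1.66-fold lower (adjusted p = 0.00692). Hoxa7, another thoracic patterning gene, was tight in wild type at 0.57, 0.53 and 0.55, and stood at 0.65, 0.97 and 0.60 at 8 weeks, -0.19, -0.11 and 0.15 at 16 weeks, and -0.14, -0.36 and -0.32 at 24 weeks. Its 8-week pools were all above wild type, and its later pools all below. At 16 weeks the difference was -0.60 ± 0.11, or 1.52-fold lower (adjusted p = 0.00597).

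Hoxa10, which patterns the lumbar level and acts in the uterus, was the posterior gene called. Its log2 ratios were 0.28, 0.54 and 0.41 in wild type, -0.12, -0.24 and 0.19 at 8 weeks, -0.79, -0.28 and -0.46 at 16 weeks, and 0.07, 0.43 and 0.62 at 24 weeks. The 16-week pools were below every other pool, and the 24-week pools spanned the wild type range. The difference at 16 weeks was -0.92 ± 0.17, or 1.89-fold lower (adjusted p = 0.00484). Hoxa3, needed for the third pharyngeal arch and its derivatives, had 0.32, 0.30 and 0.16 in wild type, 0.15, 0.21 and 0.13 at 8 weeks, 0.00, 0.04 and 0.04 at 16 weeks, and -0.16, -0.04 and -0.10 at 24 weeks. Its pools stepped down from group to group with an overlap between wild type and 8 weeks only. The 16-week difference of -0.23 ± 0.07, or 1.17-fold lower, had an adjusted p of 0.0483, and 13 of 20 alternative settings raised it past the threshold, to 0.295 at most. Of its probes, one gave -0.36 (adjusted p = 0.0125 over all probes) and the other -0.11 (0.624), so they disagree.

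**Figure D2:**
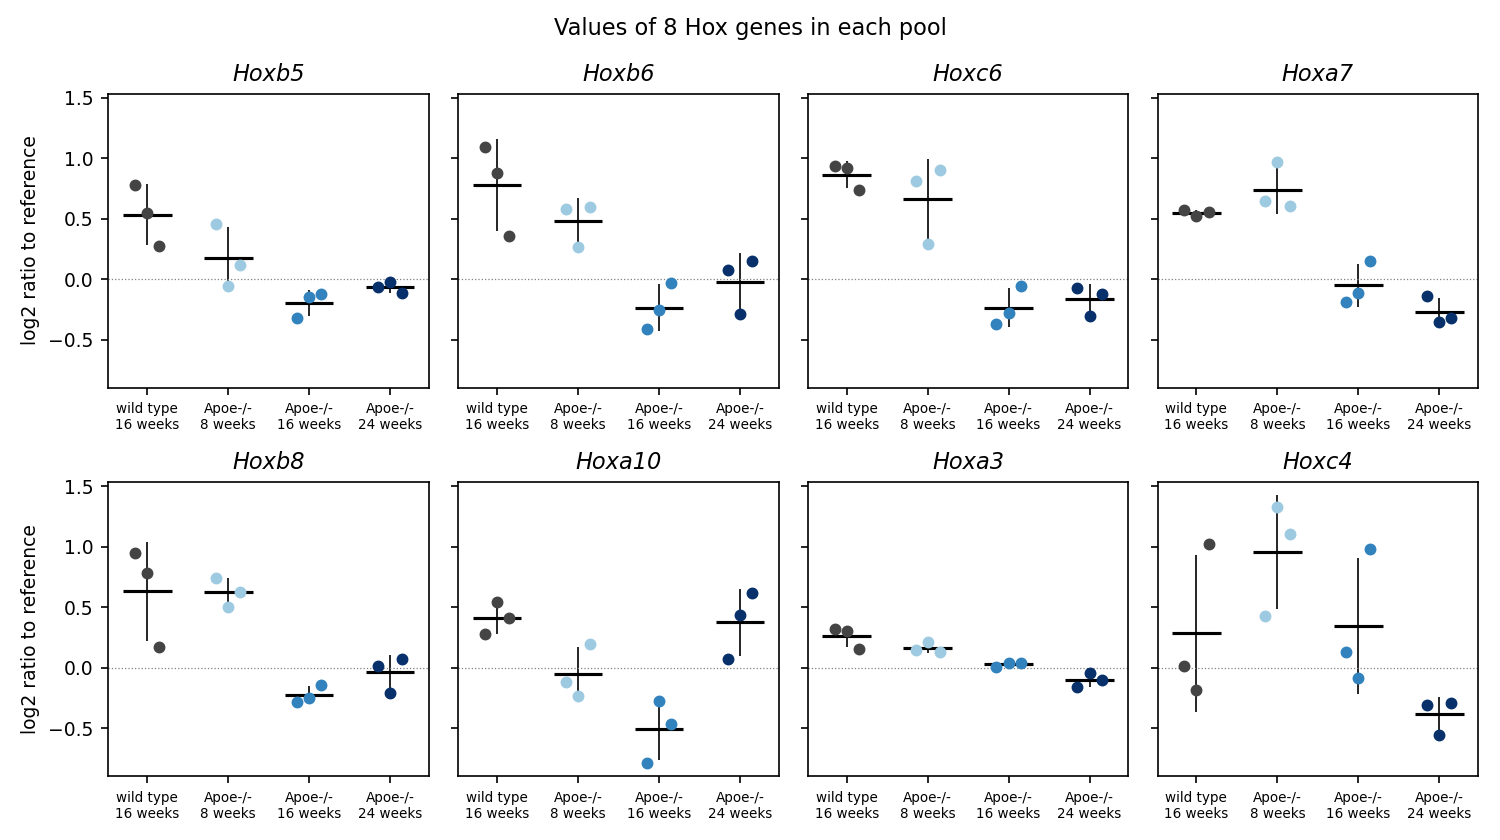
Log2 ratio to the Apoe-/- reference (vertical axis, shared scale) of 8 Hox genes in the 4 groups, with 1 point per pool, a thick line for the group mean and a thin line for ±1 SD (n = 3). For Hoxb5, Hoxb6, Hoxc6 and Hoxb8 all 16-week and 24-week pools lie below all wild type pools, whereas Hoxa10 is lowest at 16 weeks only and Hoxc4 scatters within groups.

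Among the central genes 5 of 15 were called lower at 16 weeks, among the anterior 1 of 7 and among the posterior 1 of 15. The median difference was -0.31 for central, -0.08 for anterior and -0.10 for posterior genes. By cluster the medians were -0.21 for a, -0.37 for b, -0.11 for c and -0.03 for d, and the calls numbered 3 of 10, 3 of 10, 1 of 9 and 0 of 8. All 10 genes of cluster b lay below 0, though 7 of them did not pass the test. Across the 37 genes, paralogue number and difference had a Pearson r of 0.09 and a Spearman rho of 0.08, genes of a cluster being no independent points. The 3 pools at 16 weeks lay wholly below wild type for 16 of 37 Hox genes and above for 0, while 17.9% of all genes lay wholly below and 13.5% above.

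**Figure D3:**
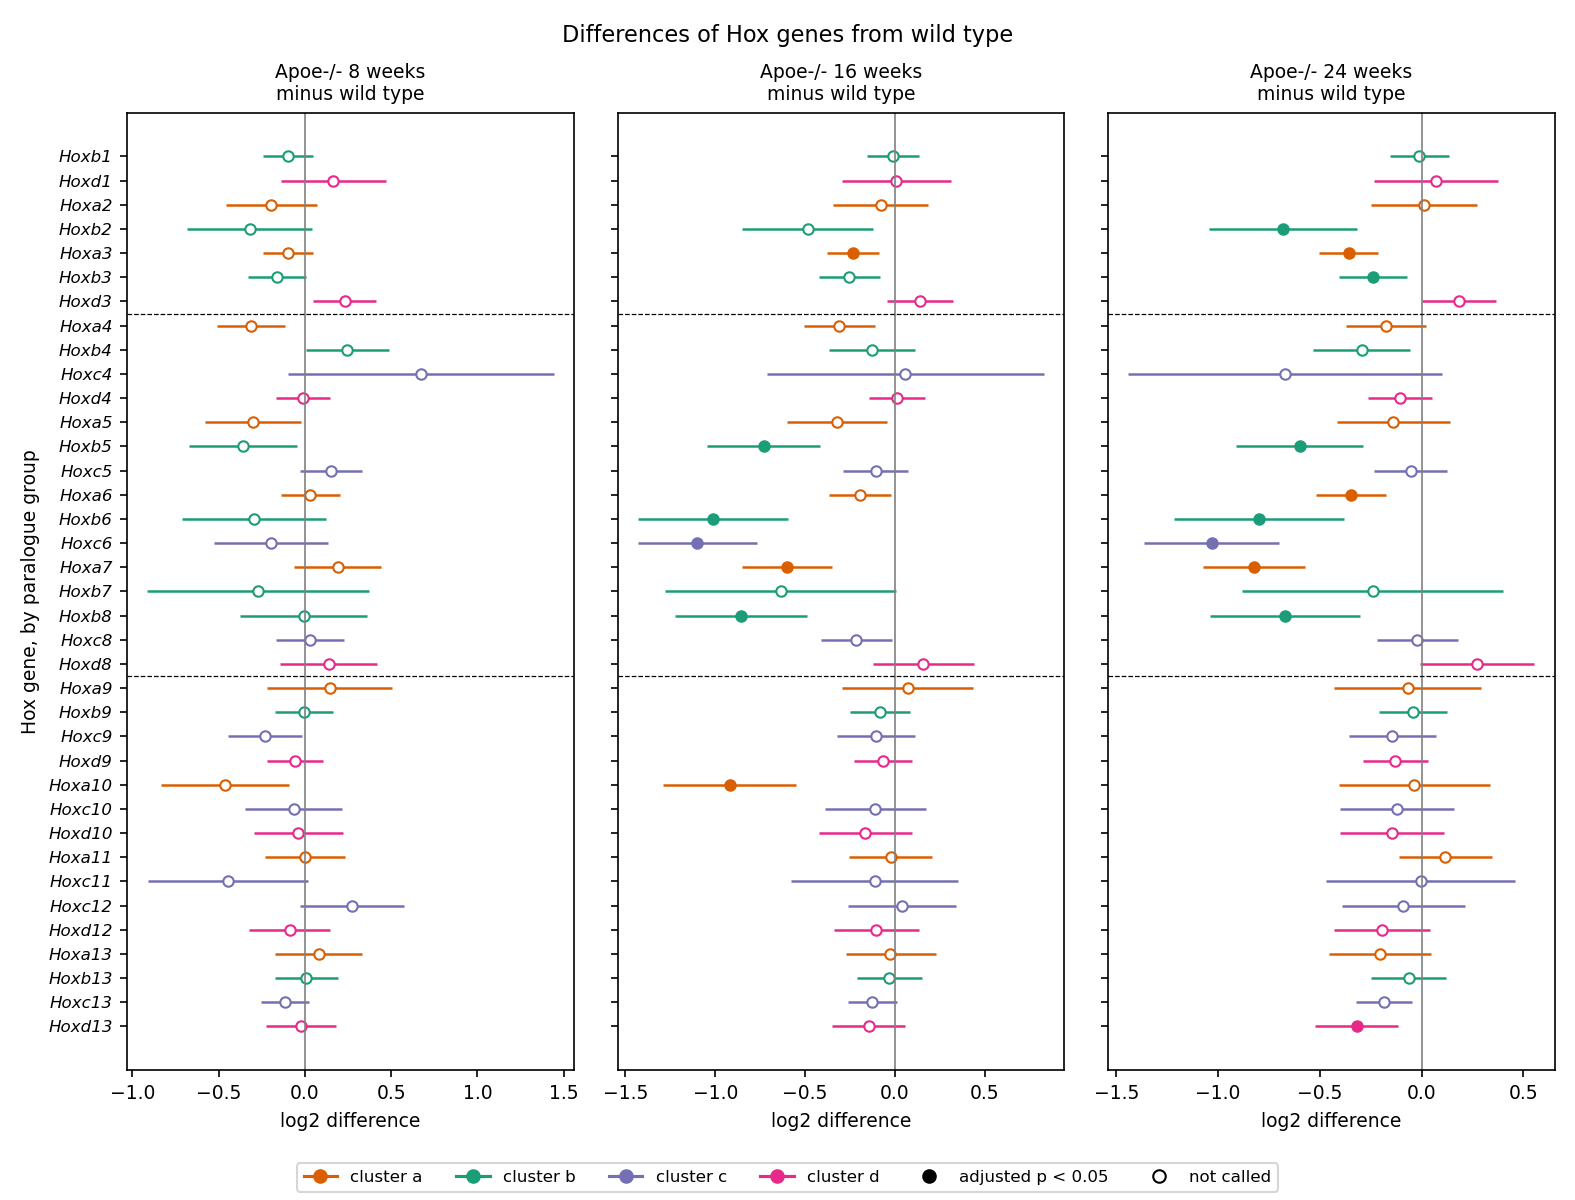
Log2 difference from wild type (horizontal axis, separate scale in each panel) of the 37 Hox genes in Apoe-/- arches after 8, 16 and 24 weeks of diet, with bars for the 95% interval of the fit. Colours mark the 4 clusters and filled points an adjusted p under 0.05, which 0 genes reached at 8 weeks, 7 at 16 weeks and 10 at 24 weeks, all of them lower.

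After 8 weeks of diet no Hox gene passed the test against the older wild type mice, where 2.50% of all genes were called in either direction. An unadjusted p under 0.05 was reached by 7 of 37 Hox genes and by 4213 of 19705 genes. The smallest adjusted p, 0.0947, belonged to Hoxa4, a gene of the neck and shoulder level. Hoxa4 had log2 ratios of 0.33, 0.19 and 0.05 in wild type, 0.01, -0.24 and -0.15 at 8 weeks, -0.14, -0.05 and -0.18 at 16 weeks, and -0.06, 0.03 and 0.07 at 24 weeks. Its 8-week pools were all below wild type, by -0.31 ± 0.09, and without pool 18 this was the 1 Hox gene called. For Hoxc6, Hoxa7 and Hoxb8 the 8-week differences were -0.20, 0.19 and -0.01, with 95% intervals of -0.53 to 0.13, -0.06 to 0.44 and -0.38 to 0.36. The largest 8-week differences in size were those of Hoxc4 at 0.67 ± 0.35, Hoxa10 at -0.46 ± 0.17 and Hoxc11 at -0.45 ± 0.21, none of which passed.

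Hoxc11, a posterior gene of kidney and hindlimb development, had log2 ratios of 0.03, 0.06 and 0.22 in wild type, -0.05, -0.97 and -0.02 at 8 weeks, -0.16, 0.09 and 0.05 at 16 weeks, and -0.03, 0.27 and 0.06 at 24 weeks. The 8-week pools all lay below wild type, with pool 2 by far the lowest. One of its probes read -1.79 in pool 2 and the other -0.15. That probe differed from wild type by -0.60 at 8 weeks (adjusted p = 0.408 over all probes). The other differed by -0.29 (0.161), so neither passed.

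Against wild type, 10 of 37 Hox genes were lower after 24 weeks and 0 higher, which is 27.0% of the set. Calls were frequent in this comparison, with 11.3% of all genes lower and 11.6% higher. Hoxa3, Hoxb5, Hoxb6, Hoxc6, Hoxa7 and Hoxb8 were called as at 16 weeks, joined by Hoxb2, Hoxb3, Hoxa6 and Hoxd13, whereas Hoxa10 stood at -0.04 ± 0.17. This set of differences uses the same wild type pools as the comparison at 16 weeks. The central genes gave 6 of 15 calls, the anterior 3 of 7 and the posterior 1 of 15. The median over the 37 genes was -0.15, against -0.04 over all genes. Below 0 lay 32 of the 37 Hox genes and 11432 of 19705 genes.

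Hoxc6 was -1.03 ± 0.15 from wild type at 24 weeks (adjusted p = 0.000457) and Hoxa7 -0.82 ± 0.11 (adjusted p = 0.000326). Hoxb6 fell by 0.80 ± 0.19 (0.0104), Hoxb8 by 0.67 ± 0.17 (0.0135) and Hoxb5 by 0.60 ± 0.14 (0.0104). Hoxb6 lost its call without pool 11, at an adjusted p of 0.0507, and Hoxb8 without pool 11, 16 or 17, at up to 0.062. Hoxa3 was -0.36 ± 0.07 (adjusted p = 0.0022), which again rested on one probe, at -0.73 against 0.01 for the other.

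Hoxb2, a gene of hindbrain and neural crest identity, had log2 ratios of 0.72, 0.57 and 0.26 in wild type, 0.50, -0.21 and 0.28 at 8 weeks, -0.04, 0.06 and 0.06 at 16 weeks, and -0.20, -0.26 and -0.05 at 24 weeks. Every 24-week pool was below every 16-week pool, and these below wild type. The 24-week difference from wild type was -0.68 ± 0.17 (adjusted p = 0.0116), and that at 16 weeks, -0.49 ± 0.17, did not pass (0.0964). Hoxa6, of the thoracic level, had 0.23, 0.16 and 0.27 in wild type, 0.07, 0.34 and 0.33 at 8 weeks, 0.06, -0.01 and 0.03 at 16 weeks, and -0.13, -0.15 and -0.11 at 24 weeks. The 24-week pools were tight and below all others, at -0.35 ± 0.08 from wild type (adjusted p = 0.00742).

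Hoxd13, required for digit formation, had log2 ratios of 0.16, 0.17 and 0.41 in wild type, 0.07, 0.35 and 0.25 at 8 weeks, 0.07, 0.08 and 0.14 at 16 weeks, and 0.00, -0.16 and -0.07 at 24 weeks. The 24-week pools were the lowest, at -0.32 ± 0.09 from wild type (adjusted p = 0.0286). Centring each array on its median, or leaving out pool 18, 11 or 12, ended that call, at an adjusted p of up to 0.113. Within their groups, pools 18, 2, 3 and 6 were the highest for Hoxd13, and these arrays had the widest spread over all probes. The part of array spread in the Hoxd13 values was not tested. Hoxb3, at -0.24 ± 0.08 (adjusted p = 0.0453), was called for the mean of its probes but for neither probe alone, and lost its call in 13 of 20 settings. Taking the mean of the 3 Apoe-/- groups, 10 Hox genes were lower than wild type, namely Hoxb2, Hoxa3, Hoxb3, Hoxa4, Hoxb5, Hoxb6, Hoxc6, Hoxa7, Hoxb8 and Hoxa10, where 6.63% of all genes were. Without wild type pool 16 that count was 1, Hoxc6, where 9.67% of all genes were called in either direction. Without pool 17 it was 2, where 8.31% of all genes were called.

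Within Apoe-/- mice, 3 central Hox genes were lower after 16 than after 8 weeks of diet. These were Hoxc6, at -0.90 ± 0.15 (adjusted p = 0.0109), Hoxa7, at -0.79 ± 0.11 (0.00744), and Hoxb8, at -0.85 ± 0.17 (0.0235), or 8.11% of the 37 genes, where 0.507% of all genes were lower. No Hox gene was called higher. An unadjusted p under 0.05 was reached by 10 of 37 Hox genes and by 2969 of 19705 genes. Hoxb6, at -0.72 ± 0.19 (adjusted p = 0.0811), was among those Hox genes. All 16-week pools lay below all 8-week pools for 12 Hox genes and above for 0, against 7.63% and 8.73% of all genes. The 3 calls ended under quantile normalization and in a fit of the 6 arrays alone, with adjusted p of up to 0.146. The differences stayed between -1.09 and -0.67 over the settings. Under quantile normalization 0.00507% of all genes were called at this step. Without pools 3 and 6, the pools with an asterisk, 1 of the 3 calls was left, that of Hoxa7, where 0.776% of all genes were called.

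Between 16 and 24 weeks 1 Hox gene was called. Hoxa10 was 1.85-fold higher at 24 weeks, at 0.88 ± 0.17 (adjusted p = 0.0158), where 3.98% of all genes were higher. Leaving out pool 4, 6, 11 or 12 ended that call (adjusted p of up to 0.079). No central gene passed at this step, with differences of 0.07 ± 0.15 for Hoxc6, 0.19 ± 0.17 for Hoxb8, 0.21 ± 0.19 for Hoxb6 and -0.22 ± 0.11 for Hoxa7, and 95% intervals that all held 0. At the same step 5 of 10 smooth muscle markers were lower, with a median of -0.35 against -0.01 over all genes. A link to the Hox genes was not tested.

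From 8 to 24 weeks 8 of 37 Hox genes were lower, or 21.6%, where 14.1% of all genes were lower and 14.7% higher, so the share is not far from the background. The genes were Hoxa3, Hoxb4, Hoxc4, Hoxa6, Hoxc6, Hoxa7, Hoxb8 and Hoxd13. The call of Hoxd13 was lost in 7 of 21 settings (adjusted p of up to 0.126), that of Hoxb8 without pool 11 (0.065) and that of Hoxa3 in a fit of only the groups compared (0.063). Hoxa3 rested on one probe here too, at -0.54 against 0.02 for the other. Hoxa7 was 2.02-fold lower, at -1.01 ± 0.11 (adjusted p = 0.000133), and Hoxc6 and Hoxb8 differed by -0.83 ± 0.15 and -0.66 ± 0.17. Hoxb4, known for expanding blood stem cells, had log2 ratios of 0.19, 0.05 and 0.19 in wild type, 0.28, 0.60 and 0.29 at 8 weeks, -0.08, -0.01 and 0.13 at 16 weeks, and -0.01, -0.12 and -0.33 at 24 weeks. Its 8-week pools were above all others, and the step to 24 weeks was -0.54 ± 0.11 (adjusted p = 0.00461). A moderated F test over the 3 diet times called 8 Hox genes, where 18.3% of all genes were called.

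Hoxc4, which shares its cluster with Hoxc6, had the largest difference of any Hox gene over the 7 comparisons, -1.34 ± 0.35 from 8 to 24 weeks (adjusted p = 0.0171). Its log2 ratios were 0.01, -0.19 and 1.03 in wild type, 0.43, 1.33 and 1.11 at 8 weeks, 0.13, -0.09 and 0.98 at 16 weeks, and -0.31, -0.55 and -0.29 at 24 weeks. The 4 pools near or above 1, pools 18, 2, 3 and 6, are the 4 arrays with the widest spread over all probes, and 3 different groups hold them. Without pool 2 or pool 11 the call was lost (adjusted p of up to 0.0651). The part of array spread in it was not tested.

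The probe named for Hoxd11 under its older symbol showed the same pools, with log2 ratios of 0.02, -0.26 and 1.32 in wild type, 0.54, 1.52 and 1.15 at 8 weeks, 0.13, -0.14 and 1.24 at 16 weeks, and -0.48, -1.07 and -0.44 at 24 weeks. It was high in pools 18, 2, 3 and 6 again. Hoxb5os, a transcript antisense to Hoxb5, followed the central genes, with 0.90, 0.99 and 0.50 in wild type, 0.68, 0.67 and 0.53 at 8 weeks, -0.17, -0.18 and 0.00 at 16 weeks, and 0.03, -0.39 and -0.29 at 24 weeks. All its wild type and 8-week pools lay above all later pools. The probes for Hoxaas2, Hoxaas3, Hoxa11os and Hoxd3os1 stayed between -0.45 and 0.74.

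Some Hox genes chosen for mention after their values were seen show how the family varied. Hoxb7, between the called genes Hoxb6 and Hoxb8, had log2 ratios of 0.77, 0.73 and -0.33 in wild type, 0.32, -0.42 and 0.47 at 8 weeks, -0.26, -0.46 and -0.02 at 16 weeks, and 0.04, 0.21 and 0.21 at 24 weeks. Pool 18 was low where the other wild type pools were high, and the 16-week difference of -0.64 ± 0.29 did not pass (adjusted p = 0.231), though it did without that pool. Hoxa9, of the posterior group and active in endothelial cells, had mean log2 ratios of 0.06 ± 0.27 in wild type, 0.21 ± 0.23 at 8 weeks, 0.13 ± 0.14 at 16 weeks and -0.01 ± 0.25 at 24 weeks (SD, n = 3 pools each), which overlap. Hoxd3 and Hoxd8 were the genes whose 24-week pools all lay above wild type, where 20% of all genes did so. They differed by 0.19 ± 0.08 and 0.27 ± 0.13, and neither passed (adjusted p = 0.134 and 0.155). The 24-week pools lay wholly below wild type for 18 of 37 Hox genes and for 29.2% of all genes. In all, 14 Hox genes passed in at least 1 of the 7 comparisons, and the other 23 passed in none. Those 23 include all genes of paralogue groups 1, 9, 11 and 12. The share of all genes passing in at least 1 comparison was not computed. From 8 to 24 weeks alone, 14.1% of all genes were lower and 14.7% higher. The median SD between pools of a group was 0.11, 0.16, 0.10 and 0.08 for Hox genes in wild type, 8, 16 and 24 weeks, and 0.10, 0.17, 0.09 and 0.08 over all genes.

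The DNA-binding partners of Hox proteins were measured for 6 of 9 listed genes. At 16 weeks against wild type Meis1 was lower by -0.42 ± 0.08 (adjusted p = 0.00705) and Pknox2 by -0.31 ± 0.07 (adjusted p = 0.0148), and 0 rose. At 24 weeks the same genes were called, Meis1 at -0.73 ± 0.08 (adjusted p = 7.37e-05) and Pknox2 at -0.34 ± 0.07 (0.00453). Between 8 and 24 weeks Meis1, Pknox2 and Pbx4 were lower, and between 16 and 24 weeks none passed. Of all genes, 4.07% were lower at 16 weeks, 11.3% at 24 weeks and 14.1% from 8 to 24 weeks.

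Of 17 genes flanking the Hox clusters, 1 was higher at 16 weeks, the sorting nexin Snx10 next to cluster a at 0.73 ± 0.16 (adjusted p = 0.0117), and 0 were lower. At 24 weeks Snx10, at 1.66 ± 0.16, and Skap2, a signalling adaptor at 0.92, were higher, and 3 were lower, with Calcoco1 at -0.68 and Ttll6 at -0.34 leading. Of 22 Polycomb and trithorax group genes, Cbx8 was higher at 16 weeks, by 0.23 ± 0.06 (adjusted p = 0.0286), and Cbx6 lower, by -0.30 ± 0.08 (0.0347). At 24 weeks the methyltransferase gene Ezh2 was higher, at 1.07 (adjusted p = 0.00305), and 4 were lower, led by Cbx6 at -0.56, Phc1 at -0.55 and Ezh1 at -0.26. Of 16 retinoic acid genes, the binding protein gene Crabp2 was higher at 16 weeks by 2.40 ± 0.24 (adjusted p = 0.000103), the receptor gene Rxrg was higher at 0.90 ± 0.25 (0.0485), and the retinaldehyde reductase gene Dhrs3 was lower at -0.29 ± 0.08 (0.0462). Crabp2 reached 3.16 at 24 weeks, and the receptor gene Rarb was lower there, at -0.81 (adjusted p = 0.0123). Among all genes tested, 6.03% were higher and 4.07% lower at 16 weeks, and 11.6% and 11.3% at 24 weeks. Median differences at 16 weeks were -0.14 for flanking, -0.01 for Polycomb and trithorax and -0.03 for retinoic acid genes, against -0.03 over all genes. At 24 weeks they were -0.04, -0.10 and -0.02 in that order, against -0.04 over all genes.

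Transcription factors of the outflow tract, arch arteries, heart and mesenchyme were measured for 23 of 25 listed genes. Gata6, a factor of vascular smooth muscle, was the 1 gene lower at 16 weeks, at -0.48 ± 0.13 (adjusted p = 0.0385). At 8 weeks, where no Hox gene passed, Gata6 at -0.70 (adjusted p = 0.019) and Foxc2 at -0.44 (0.0408) were lower than in wild type. At 24 weeks 6 were lower, and Tbx18 at -0.83, Foxc1 at -0.57, Tbx2 at -0.49 and Mef2c at -0.46 led them. Among all genes tested, 4.07% were lower at 16 weeks and 11.3% at 24 weeks, and 2.50% were called in either direction at 8 weeks.

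Markers of the vessel wall's cells moved along with these groups, and their part in the Hox differences was not tested. At 16 weeks against wild type 6 of 10 smooth muscle markers were lower (median -0.51) and 9 of 10 macrophage markers higher (median 2.66). At 24 weeks the counts were 8 lower (median -0.99) and 10 higher (median 3.80). Of all genes, 4.07% were lower and 6.03% higher at 16 weeks, and 11.3% and 11.6% at 24 weeks. Within Apoe-/- mice the median difference of smooth muscle markers was -0.37 from 8 to 16 weeks and -0.35 from 16 to 24 weeks. Central Hox genes had a median difference of -0.37 from 8 to 16 weeks and 0.12 from 16 to 24 weeks. In the pools, the median log2 ratio of smooth muscle markers lay between 0.53 and 0.70 in wild type, 0.41 and 0.46 at 8 weeks, 0.02 and 0.11 at 16 weeks, and -0.35 and -0.25 at 24 weeks. Macrophage markers ran from -3.51 to -3.02 in wild type, where they were lowest, and from 0.42 to 0.73 at 24 weeks, where they were highest, with no overlap between any of the 4 groups.

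**Figure D4:**
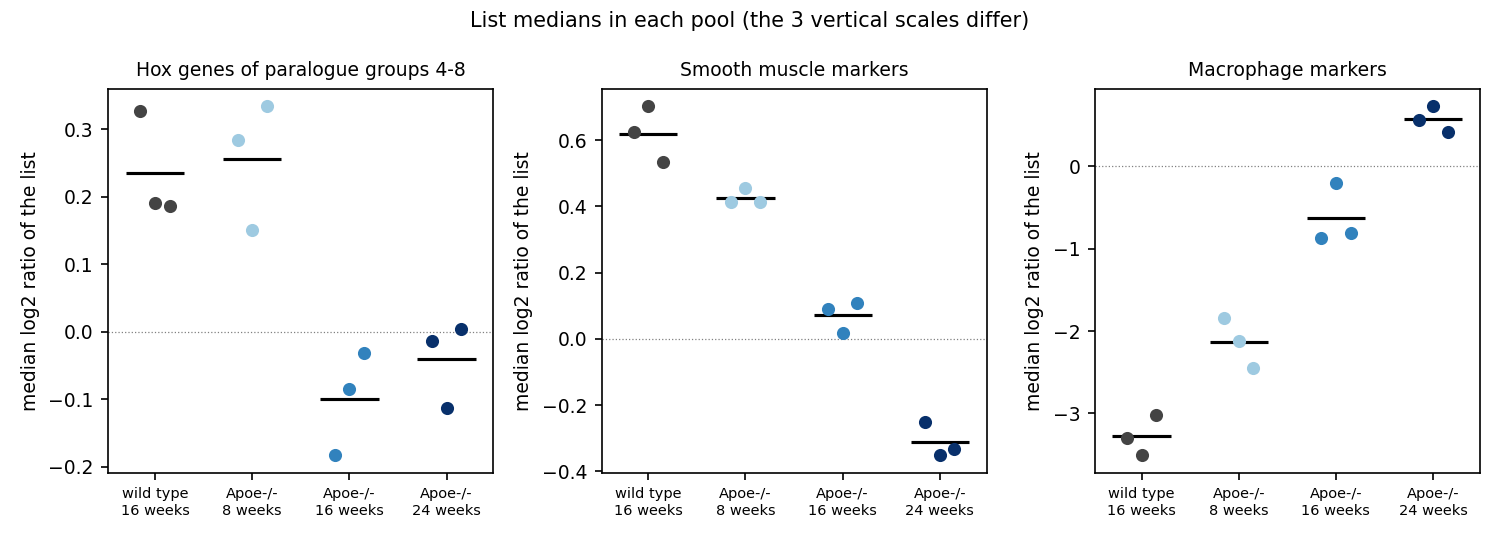
Median log2 ratio, in each pool, of the 15 central Hox genes, 10 smooth muscle markers and 10 macrophage markers (3 panels with separate vertical scales), with a line for the mean of the 3 pools. The marker medians of the 4 groups do not overlap, while the central Hox medians of wild type and 8-week pools overlap, as do those of 16-week and 24-week pools.

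The pool medians of the central Hox genes were 0.33, 0.19 and 0.19 in wild type, 0.28, 0.15 and 0.33 at 8 weeks, -0.18, -0.09 and -0.03 at 16 weeks, and -0.01, -0.11 and 0.00 at 24 weeks. All wild type and 8-week pools lay above all later pools. Of the other marker lists, 4 of 8 endothelial markers were higher at 16 weeks (median 0.50), as were 2 of 7 fibroblast and 2 of 7 white adipocyte markers, and 1 of 9 brown adipocyte markers was lower. Brown adipocyte markers were lower for 5 of 9 from 8 to 24 weeks, where 14.1% of all genes were lower. Their pool medians were 0.15 to 0.79 at 8 weeks and -0.48 to -0.04 at 24 weeks. None of 12 cardiac muscle markers was called in any comparison, and their pool medians ranged from -2.09 to 0.80. Skeletal muscle markers gave no call, and 1 of 5 nerve markers was lower at 24 weeks. Defining markers of smooth muscle and macrophages, Myh11 and Trem2 among them, were measured on every array, and a ratio to a reference of the same tissue cannot show their absolute level.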

How the data were processed

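The authors' deposited table gives 1 log10 ratio per probe and array, a pool (Cy5) over the common reference (Cy3). Dyes, amplification and pooling are per the labels' protocols, and the sources used here do not state the scanner, background correction or normalization. Base 10 and the centring near 0 were read from the values, so the size of every log2 difference and fold rests on that inferred base. For example, Pth in pool 10 would make up 15.7% of the reference's signal in base 10 but 43.6% in base 2. Ratios were multiplied by 3.322 to log2. No spot intensity or depth is given, and the number of arrays limits the precision. Of 39556 probes, 23283 had 1 gene symbol. Symbols were updated through the RefSeq GRCm38.p6 gene table (5952 replaced, 11 not found), except that Hox membership used the annotated symbol. Probes of a gene were averaged.

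The test was limma 3.58.1 (R 4.3.3), lmFit and eBayes with 1 mean per group over all 12 arrays (8 residual and 2.95 prior degrees of freedom) and Benjamini-Hochberg adjustment over 19705 genes, for 7 comparisons and an F test over diet times. It was tested on simulated data. Full pool values are given for the 12 called Hox genes with the smallest F-test p over the 4 groups and for the 3 largest differences in each of 4 comparisons. Other lists name at most 4 called genes each, by size, with exceptions made after the values were seen. Members, lists and comparisons were chosen with earlier results of these data known. Alternatives were quantile normalization, median centring, array weights, robust eBayes, a looser filter on missing values, each probe alone, only the groups compared, each pool left out, pools 3 and 6 left out, and, added after seeing the data, pools 2 and 18 left out.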

Additional observations from a re-analysis of the deposited data

Results flagged for a closer look

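A test of the difference between diet times, which equals the difference between their effects against the shared wild type pools, passed for 12 results. From 8 to 16 weeks the log2 differences were -0.90 for Hoxc6, -0.79 for Hoxa7 and -0.85 for Hoxb8, where 0.507% of all genes were lower. Hoxa10 differed by 0.88 from 16 to 24 weeks, where 3.98% of all genes were higher. That 1 call is 2.70% of the Hox set. From 8 to 24 weeks they were -0.26 for Hoxa3, -0.54 for Hoxb4, -1.34 for Hoxc4, -0.38 for Hoxa6, -0.83 for Hoxc6, -1.01 for Hoxa7, -0.66 for Hoxb8 and -0.30 for Hoxd13. From 8 to 24 weeks 14.1% of all genes were lower and 14.7% higher, so the Hox share there, 21.6%, is not far from the background. With 3 pools in a group, no sample was tested as an outlier.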

How the results depend on the processing

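Of 29 calls of single Hox genes, 16 held in every setting run and 13 were lost in at least 1, and none reversed its direction. For genes with 2 probes, the setting of each probe alone was left out of this count. Hoxa3 at 24 weeks against wild type thus counts as held, though its probes disagreed, at -0.73 and 0.01. The calls of Hoxb5, Hoxb6, Hoxc6, Hoxa7, Hoxb8 and Hoxa10 at 16 weeks against wild type held in all 21 settings. With array weights the count of Hox genes called was 13 at 16 weeks and 18 at 24 weeks against wild type (16 lower, with Hoxd3 and Hoxd8 higher), 4 from 16 to 24 weeks and 13 over the diet times. In that setting 28.4% of all genes were called at 16 weeks, 41.5% at 24 weeks and 32% from 16 to 24 weeks. For the F test over diet times, the share of all genes was taken in the main fit only, at 18.3%. Its Hox counts in the other settings therefore have no such share beside them. Without pools 2 and 18 the Hox counts were 12 at 16 weeks against wild type and 5 from 8 to 16 weeks. They were 2 from 16 to 24 weeks and 13 over the diet times. All genes were called at 19.9% at 16 weeks against wild type, 2.95% from 8 to 16 weeks and 20.1% from 16 to 24 weeks. Quantile normalization gave 3 Hox genes for the mean of the Apoe-/- groups, where 7.82% of all genes were called. It gave 0 from 8 to 16 weeks, where 0.00507% of all genes were called. From 16 to 24 weeks it gave 4, of which Hoxa6, Hoxa7 and Hoxc4 were lower, where 25.5% of all genes were called. Without pools 3 and 6 there was 1 Hox gene from 8 to 16 weeks (0.776% of all genes). There were 0 from 16 to 24 weeks (1.01% of all genes) and 4 over the diet times. A fit of only the groups compared gave 0 from 8 to 16 weeks, and the share of all genes was not taken there. Each probe alone gave 2 Hox genes from 16 to 24 weeks, where 5.73% of probes were called. Leaving out each pool in turn gave 6 to 11 at 16 weeks against wild type (11 without pool 18 or 2), 0 to 1 at 8 weeks, and 6 (without pool 11) to 12 at 24 weeks. It gave 1 to 11 for the mean of the Apoe-/- groups, 1 (without pool 4 or 5) to 4 from 8 to 16 weeks, and 0 (without pool 4, 6, 11 or 12) to 1 from 16 to 24 weeks. From 8 to 24 weeks it gave 5 (without pool 11) to 10, and over the diet times 5 (without pool 11 or 12) to 9. The share of all genes called shifted too. It ran from 6.25% to 15.5% at 16 weeks against wild type, 0.695% to 3.86% at 8 and 15.8% to 31.7% at 24 weeks. For the mean of the Apoe-/- groups it ran from 8.31% to 20.6%. Between diet times it was 0.848% to 3.85% (8 to 16 weeks), 0.604% to 13.1% (16 to 24) and 15% to 35.6% (8 to 24). The cause of these shifts was not tested. No paired analysis was possible because no pool number occurs in more than 1 group. How far a Hox probe lay above background could not be assessed from ratios.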
